A study of Mus musculus with 51 samples.

Results

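Genes of oxidative phosphorylation were examined across 3 subfields of the mouse hippocampus and then across genotypes. They were taken by symbol, as the subunits of the respiratory chain complexes I to IV and of ATP synthase (complex V), and comprised 82 of the 11807 genes with a single symbol on the array. For each gene the probe set with the highest mean signal over all 51 arrays was used. Complex I contributed 34 subunits and 4 assembly factors, complex II 4 subunits, complex III 7, complex IV 16 and complex V 17. One of the complex I entries, Ndufs5-ps, is named for a pseudogene that shares sequence with Ndufs5, so that its signal cannot be assigned to either.

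Laser capture had been used to take the pyramidal layer of CA1, that of CA3 and the granular layer of the dentate gyrus (DG) from 17 female mice aged 4.5 months, with 1 array per mouse and subfield. Double negative (DN) mice carried neither transgene (6 mice). The tTA mice carried only the tetracycline-controlled transactivator under the CaMKIIα promoter, which is active in forebrain excitatory neurons (5 mice). The rTg4510 mice carried the same transactivator and, driven by it, a human tau transgene with the P301L mutation (6 mice). All were littermates from a cross of FVB/N and 129S6 breeders, and tTA mice are the control that shares the transactivator with rTg4510 mice. The captured layers hold other cells beside the principal neurons, and with bulk RNA fewer cells of a type and less RNA per cell cannot be told apart.

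The respiratory chain passes electrons from NADH (complex I) and succinate (complex II) through ubiquinone, complex III and cytochrome c to oxygen at complex IV, and the proton gradient this builds drives ATP synthase. Neurons depend on it to restore ion gradients after firing. Most subunits are encoded in the nucleus and only these are measured here. Their promoters are known to be served by the nuclear respiratory factors NRF1 and GABPA, by YY1 and by the estrogen-related receptors.

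Markers of the DG (Prox1, Calb1, C1ql3 and Dsp) had summed signals of 9.32 to 10.71 on the log2 scale in DG arrays and at most 8.32 in CA1 and 6.99 in CA3 arrays, with no overlap. The CA3 markers (Bok, Prkcd, Grp and Nptx1) lay between 9.53 and 10.26 in CA3 arrays and reached 9.64 in CA1 and 9.51 in DG arrays. The CA1 markers (Htr1a, Wfs1, Dcn and Pou3f1) ranged from 4.41 to 10.87 in CA1 arrays and from 5.96 to 8.85 in the others, so that they did not separate CA1. For 5 arrays Prnp did not match the labelled genotype (the 3 arrays of DN mouse 4 and the DG arrays of DN mouse 5 and rTg4510 mouse 3), and in the CA1 and CA3 arrays of DN mouse 5 Xist did not match the labelled sex, as was also so in that DG array of rTg4510 mouse 3. These arrays were kept under their labels, and results are also given without the 5 and without all 7.

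The promoter windows that follow are those of the 4 genes called higher than in the DG in both pyramidal layers (values below). Each runs from 250 bases before the RefSeq transcription start to 50 bases from it, 5′ to 3′ in the direction of the gene, in build GRCm38.p6, at chr11:96075582-96075881 on the minus strand, chr19:7217567-7217866 on the minus strand, chr10:94198785-94199084 on the plus strand and chr2:140170396-140170695 on the plus strand. Capitals mark matches on either strand to the 7 motifs searched.
Atp5g1: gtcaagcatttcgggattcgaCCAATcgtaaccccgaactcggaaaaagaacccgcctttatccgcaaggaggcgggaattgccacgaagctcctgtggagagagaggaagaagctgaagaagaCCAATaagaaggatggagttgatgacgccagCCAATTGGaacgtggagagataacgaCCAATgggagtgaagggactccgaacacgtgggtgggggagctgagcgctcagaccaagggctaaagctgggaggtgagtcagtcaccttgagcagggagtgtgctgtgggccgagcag
Cox8a: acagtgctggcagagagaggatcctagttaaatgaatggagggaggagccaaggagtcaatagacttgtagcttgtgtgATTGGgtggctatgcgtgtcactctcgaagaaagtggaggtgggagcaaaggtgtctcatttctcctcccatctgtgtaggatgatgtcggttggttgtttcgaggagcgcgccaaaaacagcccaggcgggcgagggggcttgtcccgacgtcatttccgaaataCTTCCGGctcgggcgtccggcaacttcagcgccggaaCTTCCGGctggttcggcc
Ndufa12: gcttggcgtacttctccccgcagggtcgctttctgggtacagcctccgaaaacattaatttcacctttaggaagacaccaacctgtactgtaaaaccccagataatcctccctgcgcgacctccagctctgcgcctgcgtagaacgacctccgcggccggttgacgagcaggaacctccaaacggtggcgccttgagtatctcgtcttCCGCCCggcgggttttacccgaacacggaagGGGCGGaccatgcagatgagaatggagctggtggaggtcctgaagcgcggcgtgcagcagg
Ndufaf5: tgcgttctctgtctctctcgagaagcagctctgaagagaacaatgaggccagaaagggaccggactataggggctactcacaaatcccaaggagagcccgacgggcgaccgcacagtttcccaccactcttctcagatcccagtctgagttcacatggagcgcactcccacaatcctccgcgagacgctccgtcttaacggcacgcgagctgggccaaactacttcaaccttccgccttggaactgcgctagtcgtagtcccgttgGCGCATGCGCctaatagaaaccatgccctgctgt
The Atp5g1 window held 5 matches to the CCAAT box (letters CCAAT), of which those beginning at bases 156 and 159 of the window, on opposite strands, overlap. Cox8a held the GABPA core (CCGGAAG) from bases 246 and 283, both on the opposite strand, and a CCAAT box. Ndufa12 held 2 matches to the SP1 core (GGGCGG), from bases 209 and 240. Ndufaf5 held the NRF1 core (GCGCATGC) on both strands in overlapping matches from bases 267 and 269. The 4 windows thus shared no single motif among those searched.

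Windows were listed for 67 of the 82 genes. The NRF1 core was in 12 of them (17.9%) and in 2.8% of the 27025 genes with a window, the GABPA core in 15 (22.4%) and 9.12%, and the YY1 core (AAGATGGC) in 9 (13.4%) and 2.88%. At least 1 of these 3 was in 31 windows (46.3%) and in 13.8% of all. The core of the estrogen-related receptors (AAGGTCA) was in 7 (10.4%) and 4.66%, the SP1 core in 29 (43.3%) and 35.9%, the CCAAT box in 28 (41.8%) and 37.9% and the TATA box (TATAAA) in 7 (10.4%) and 14.2%. The windows had a median GC content of 57.3%, against 52.7% for all genes. Of the 13 genes higher than in the DG in either pyramidal layer, 12 had a window, and 3 of these held the NRF1 core, 2 the GABPA core, 2 the YY1 core and none the estrogen-related receptor core. Such matches describe letters and not bound sites.

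Subfields were compared in a limma fit of the 51 arrays that had a term for each mouse, and called at a Benjamini-Hochberg adjusted p of 0.05 over all 22626 probe sets. In CA1 the signal of 8 genes was higher than in the DG (9.76% of the 82, where 5.6% of all probe sets were called higher in CA1), and none was called lower, where 5.33% of all probe sets were called higher in the DG. They were Ndufaf5, Atp5g1, Ndufs7, Atp5mpl, Cox8a, Atp5d, Ndufa12 and Ndufab1. In CA3, 9 genes were higher than in the DG (11%, where 7.27% of all probe sets were called higher in CA3), and none was lower, where 6.59% of all were. These were Atp5g1, Ndufaf5, Cox8a, Ndufaf1, Atp5pb, Ndufaf4, Ndufa11, Ndufa12 and Atp5j. The direction was the same for all 17 of these calls. The 82 probe sets were brighter than the background, as only 6 had a mean signal below that of the typical probe set (3.10). The background shares were not taken at a like signal. At an unadjusted p under 0.05, 23 of the 82 genes passed in CA1 (28%) and 21 in CA3 (25.6%), each of them higher than in the DG. Of all probe sets 21.9% and 25.9% passed, but in both directions together. These background shares are therefore not of the same kind as the 1-direction shares above. Between CA1 and CA3, 1 gene differed, Atp5d, with a higher signal in CA1 (1.22% of the 82, where 2.46% of all probe sets were higher in CA1 and 2.22% in CA3).

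The whole set leaned the same way by small amounts. The difference of CA1 from the DG was above 0 in 75 of 82 genes (91.5%, against 54.1% of all probe sets) with a median of 0.19, where the median of all probe sets was 0.02. The difference of CA3 from the DG was above 0 in 71 genes (86.6%, against 59%) with a median of 0.15, where that of all probe sets was 0.05. The shares and medians of all probe sets were again not taken at a like signal. The typical standard error of a single gene was 0.13. Between CA1 and CA3 44 of 82 genes were higher in CA1, with a median of 0.02. Per mouse, the mean over the 82 genes was higher in CA1 than in the DG in 15 of 17 mice, by 0.21 ± 0.25 (SD, n = 17), and higher in CA3 than in the DG in 11 of 17, by 0.18 ± 0.33 (SD, n = 17).

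**Figure D1:**
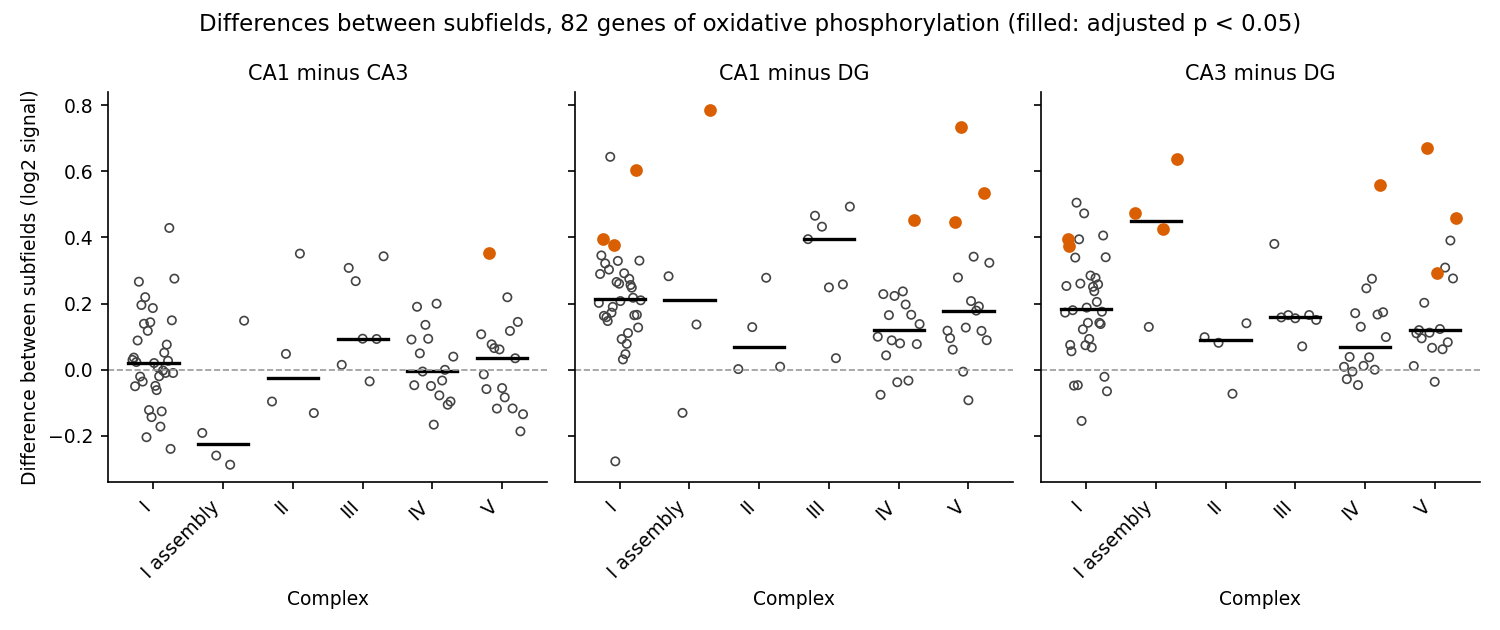
Difference in log2 signal between subfields for each of the 82 genes (points), by complex on the horizontal axis, with the median of each complex as a bar. Filled points are the 1, 8 and 9 genes called at an adjusted p of 0.05 in the 3 contrasts, all above 0, and most open points of the contrasts with the DG also lie above 0.

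Atp5g1 encodes a precursor of the c subunit that forms the rotating ring of ATP synthase. Its log2 signal had a lowest value, median and highest value of 6.03, 6.90 and 7.15 in CA1, of 6.03, 6.69 and 7.12 in CA3, and of 5.36, 6.00 and 6.60 in the DG. The pyramidal arrays and DG arrays overlapped only in part, and CA1 was higher than the DG in 15 of 17 mice and CA3 in 16 of 17. The difference was 0.74 (standard error 0.10, adjusted p = 2.68e-06 from limma) for CA1 and 0.67 (standard error 0.10, adjusted p = 8.82e-06) for CA3. It kept its call in each alternative run. The genes for the same c subunit, Atp5g2 and Atp5g3, which encode the identical mature protein, differed between CA1 and the DG by −0.01 and 0.13 (standard errors 0.16 and 0.08), with adjusted p of 0.991 and 0.41. In CA3 their differences from the DG were 0.11 and 0.07, with adjusted p of 0.701 and 0.662. Whether the 3 genes differ from each other in this was not tested.

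Ndufaf5 is an assembly factor that modifies the Ndufs7 subunit of complex I. Its signal ran from 6.34 over a median of 6.94 to 8.17 in CA1, from 5.92 over 6.69 to 7.71 in CA3 and from 5.18 over 6.20 to 7.22 in the DG. The ranges overlapped, but the gene was higher in CA1 than in the DG in 16 of 17 mice and in CA3 in 14 of 17. The difference was 0.79 (standard error 0.16, adjusted p = 0.000641) for CA1 and 0.64 (standard error 0.16, adjusted p = 0.00465) for CA3. Ndufs7 itself, a subunit that carries an iron-sulfur cluster, ran from 7.60 over 8.76 to 10.69 in CA1, from 7.88 over 8.36 to 9.77 in CA3 and from 7.60 over 8.24 to 8.89 in the DG. It was higher in CA1 than in the DG by 0.60 (standard error 0.19, adjusted p = 0.0309), and the spread was widest in CA1 (SD 0.77, against 0.34 in the DG). In CA3 Ndufs7 was 0.18 above the DG (adjusted p = 0.6). With its other probe set it differed between CA1 and the DG by 0.36 (standard error 0.17, adjusted p = 0.213) and was not called.

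All 4 assembly factors had differences of CA3 from the DG above 0, with a median of 0.45 and 3 called. Ndufaf4 was higher in CA3 than in the DG (0.42, standard error 0.11, adjusted p = 0.00672), and so was Ndufaf1 (0.47, standard error 0.15, adjusted p = 0.0336). In CA1 they differed from the DG by 0.14 and 0.28 (adjusted p = 0.547 and 0.295). Between CA1 and CA3, Ndufaf4 differed by −0.29 (adjusted p = 0.155). With its other probe set Ndufaf4 differed between CA3 and the DG by 0.30 (standard error 0.17, adjusted p = 0.272) and was not called. Ndufaf3 differed from the DG by −0.13 in CA1 and 0.13 in CA3 (adjusted p = 0.808 and 0.75). Ndufaf1 had a low signal, with a mean of 3.83 over all arrays against 3.10 for the typical probe set, and its call in CA3 was lost with an intensity trend (adjusted p = 0.057).

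Among complex I subunits, Ndufa12, a supernumerary subunit, had the narrowest spread of the called genes in CA3. Its signal ran from 8.91 over 9.52 to 9.92 in CA1, from 9.11 over 9.47 to 9.76 in CA3 and from 8.42 over 9.12 to 9.67 in the DG. It was higher in CA3 than in the DG in 17 of 17 mice and in CA1 in 15 of 17, by 0.37 (standard error 0.08, adjusted p = 0.00157) and 0.40 (standard error 0.08, adjusted p = 0.00102). Ndufab1, the mitochondrial acyl carrier protein, ran from 7.43 over 8.02 to 8.64 in CA1 and from 6.92 over 7.71 to 8.27 in the DG, a difference of 0.38 (standard error 0.11, adjusted p = 0.014). In CA3 it was 0.26 above the DG (adjusted p = 0.1). Ndufa11, a membrane subunit, was 0.40 higher in CA3 than in the DG (standard error 0.13, adjusted p = 0.0409), yet in only 10 of 17 mice, and differed by 0.35 in CA1 (adjusted p = 0.0967). Of the 34 complex I genes, 33 had a difference of CA1 from the DG above 0 and 29 of CA3 from the DG, with medians of 0.21 and 0.18. The exception in CA1 was Ndufb10 (−0.28, standard error 0.14, adjusted p = 0.256), which was also below 0 in CA3. Ndufb7 and Ndufa5, which had the highest mean signals of this complex, were 0.03 and 0.15 above the DG in CA1 (adjusted p = 0.923 and 0.349). With their other probe sets the differences were 0.33 (adjusted p = 0.216) and 0.53 (adjusted p = 0.0125), so that Ndufa5 was called there.

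Complex II, which also catalyses a step of the citric acid cycle, had no called gene. Sdha, its flavoprotein, ran from 9.88 to 10.25 in CA1, from 9.97 to 10.34 in CA3 and from 9.34 to 10.30 in the DG. It differed between CA1 and the DG by 0.00 (standard error 0.06, adjusted p = 0.995) and between CA3 and the DG by 0.10 (standard error 0.06, adjusted p = 0.341). Sdhb, the iron-sulfur subunit, differed from the DG by 0.13 in CA1 and 0.08 in CA3. Sdhc and Sdhd, the membrane anchors, differed from the DG by 0.28 and 0.01 in CA1 and by −0.07 and 0.14 in CA3. Between CA1 and CA3, Sdhc differed by 0.35 (standard error 0.13, adjusted p = 0.147).

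Complex III, the cytochrome bc1 complex, had the largest median difference of CA1 from the DG of the 5 complexes, 0.39, with all 7 genes above 0 but none called. The difference of CA1 from the DG was 0.49 for Uqcrq (standard error 0.19, adjusted p = 0.0893) and 0.47 for Uqcr11 (standard error 0.16, adjusted p = 0.0593). Both encode small subunits. Uqcrc2, a core subunit, differed by 0.03 (standard error 0.11, adjusted p = 0.911). In CA3 the 7 differences from the DG were also above 0, with a median of 0.16.

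In complex IV, cytochrome c oxidase, Cox8a was the called gene. It encodes the ubiquitous form of a small subunit. Its signal ran from 6.26 over 7.61 to 8.18 in CA1, from 6.78 over 7.70 to 8.31 in CA3 and from 6.30 over 7.17 to 7.79 in the DG. The ranges overlapped, and the gene was higher than in the DG in 14 of 17 mice in CA1 and in 13 of 17 in CA3, by 0.45 (standard error 0.14, adjusted p = 0.0257) and 0.56 (standard error 0.14, adjusted p = 0.00387). With its other probe set the differences were 0.40 (adjusted p = 0.0687) and 0.66 (adjusted p = 0.00112). The CA1 call was lost without DN mouse 5 or without rTg4510 mouse 6, with adjusted p between 0.0568 and 0.0684.

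The other isoforms of complex IV divide by signal. Cox4i2, Cox6a2, Cox6b2, Cox7a1, Cox8b and Cox8c, forms known from lung, heart, skeletal muscle or testis, had mean signals of 1.94 to 2.58, below the 3.10 of the typical probe set, and so may not be detected. None was called in any subfield contrast. The forms found in most tissues, Cox4i1, Cox6a1, Cox6b1, Cox7a2 and Cox7a2l, had mean signals of 8.64 to 9.90. They differed between CA1 and the DG by 0.10, 0.16, 0.22, 0.20 and −0.03, and between CA3 and the DG by 0.01, 0.17, 0.13, 0.28 and −0.00, with none called on the probe sets used. With its other probe set Cox6b1 was called higher in CA1 than in the DG (0.38, adjusted p = 0.0371). The other probe sets of Cox6a1, Cox7a2 and Cox7a2l were not called. Ndufa4, first assigned to complex I and now known as a subunit of complex IV, differed from the DG by 0.16 in CA1 and 0.18 in CA3 (adjusted p = 0.538 and 0.389). Cox5b varied least of the 82 genes, with an SD of 0.13 over all arrays, and differed from the DG by 0.04 and −0.01. Cox6c differed by 0.08 and 0.25 (adjusted p = 0.804 and 0.215).

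In complex V, beside Atp5g1, 4 genes were called. Atp5d, the delta subunit of the central stalk, ran from 8.52 over 9.13 to 9.67 in CA1, from 7.88 over 8.82 to 9.06 in CA3 and from 8.26 over 8.65 to 9.49 in the DG. In CA1 it was 0.45 above the DG (standard error 0.10, adjusted p = 0.00181) and 0.35 above CA3 (standard error 0.10, adjusted p = 0.0307), and between CA3 and the DG it differed by 0.09 (adjusted p = 0.593). Its other probe set gave 0.28 against the DG (adjusted p = 0.147) and −0.0035 against CA3 (adjusted p = 0.994), so that the difference between CA1 and CA3 was seen with only 1 of its 2 probe sets. Atp5mpl, a small membrane subunit, was 0.54 higher in CA1 than in the DG (standard error 0.18, adjusted p = 0.0467). Atp5pb and Atp5j, both of the peripheral stalk, were 0.46 (standard error 0.16, adjusted p = 0.0444) and 0.29 (standard error 0.10, adjusted p = 0.0373) higher in CA3 than in the DG. Atp5h, another peripheral stalk gene with a high signal, was 0.09 below the DG in CA1 (standard error 0.06, adjusted p = 0.415), and Atp5c1, the gamma subunit, 0.06 above it (adjusted p = 0.779).

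**Figure D2:**
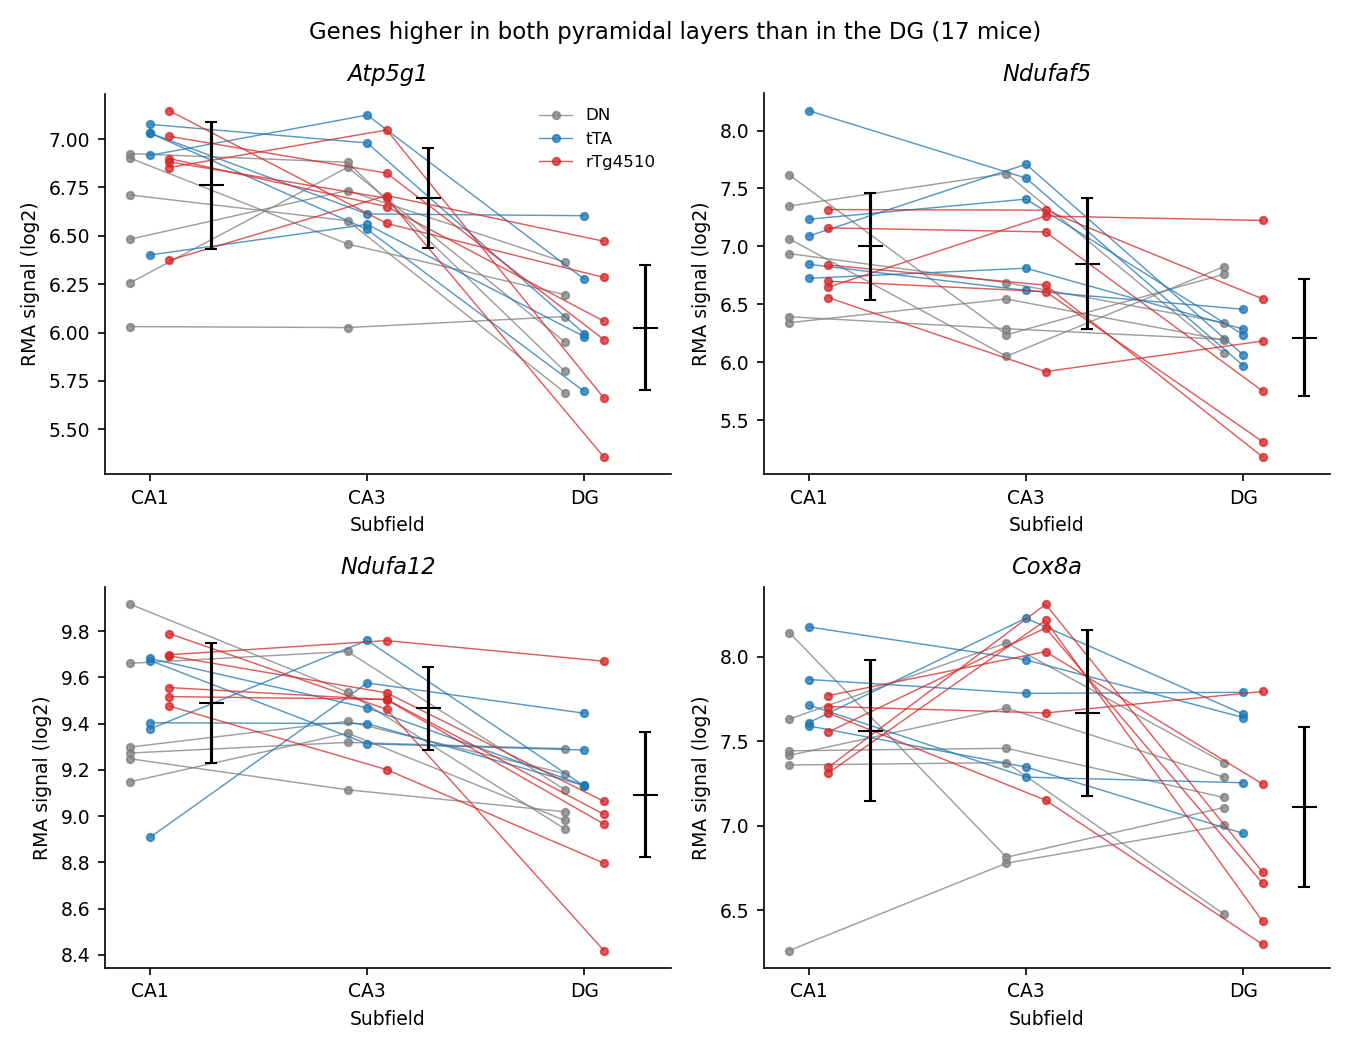
Log2 RMA signal of the 4 genes called in both contrasts with the DG, with a line for each of the 17 mice coloured by genotype and the mean ± SD of each subfield in black. Most lines fall from the pyramidal layers to the DG, and for Ndufa12 all 17 fall from CA3 to the DG.

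Several calls lay close to the threshold. Atp5mpl was no longer called without any of 11 mice (tTA mice 1 and 3, DN mice 1, 2, 3 and 5, and all rTg4510 mice but mouse 4), with adjusted p of 0.0535 to 0.11. Atp5pb was lost without any of 10 (DN mice 2 and 5, each rTg4510 mouse, and tTA mice 4 and 5; 0.0516 to 0.105), and Ndufa11 without any of 10 (tTA mouse 2, all DN mice but mouse 4, and rTg4510 mice 1, 2, 4 and 5; 0.0515 to 0.104). Atp5j was lost without DN mice 2 or 5, rTg4510 mice 1, 2, 5 or 6, or tTA mice 1, 4 or 5 (0.0542 to 0.0863). Ndufaf1 was lost without DN mice 4 or 5, rTg4510 mice 1, 4 or 6, or tTA mice 1, 3, 4 or 5 (0.0527 to 0.0868), and Ndufs7 without DN mice 1 or 3, rTg4510 mouse 5 or tTA mouse 2 (0.0515 to 0.0693). The CA1 and CA3 difference of Atp5d was lost without DN mouse 3, rTg4510 mice 3 or 4, or tTA mice 1, 2, 3 or 5 (0.0507 to 0.0655), so that the count for that contrast went from 1 to 0. Atp5g1, Ndufaf5 and Ndufa12 in both contrasts with the DG, Cox8a and Ndufaf4 in CA3, and Atp5d and Ndufab1 in CA1 stayed called with each mouse left out.

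The number called turned on DN mouse 4, whose label is in doubt. Without it 13 genes were higher in CA1 than in the DG and 14 in CA3, and without DN mouse 5 or without rTg4510 mouse 1 the CA3 count was 5. Without the 5 arrays in doubt the counts were 10 and 13, and without the 7 they were 10 and 12, with medians of 0.25 and 0.20 (5 arrays) and 0.23 and 0.20 (7 arrays). Ndufs7 and Ndufaf1 were then no longer called (adjusted p = 0.0789 and 0.095 without the 5 arrays). Without the mouse as a block, 5 genes were called in CA3, and arrays of the same mouse correlated in their deviations from the group means at a mean r of only 0.0492 across probe sets. Other probe sets of the same genes were also read. Over all 134 probe sets of the 82 genes, 20 were called between CA1 and the DG and 15 between CA3 and the DG. Of these, 1 was lower in CA1 (a second probe set of Atp5c1, with a low mean signal of 2.45) and none was lower in CA3. Of all probe sets in the same fit, 5.6% were called higher in CA1 and 5.33% higher in the DG. Between CA3 and the DG, 7.27% were called higher in CA3 and 6.59% higher in the DG. These shares were not taken at a like signal, and some genes have several of the 134 probe sets. The probe sets added in CA1 included 3 of Ndufa7 and 1 each of Cox5a, Cox6b1, Ndufa10, Ndufa5 and Ndufv2. Where mice, arrays or the mouse block were left out, the share of all probe sets called was not taken. A change in count there cannot be read as particular to these genes.

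A sign of RNA quality moved with the same contrast. The log2 signal of the 3′ probe set of Gapdh minus that of its 5′ probe set had a CA1 median of 2.32, a CA3 median of 2.40 and a DG median of 2.67. It was higher in the DG than in CA1 in 12 of 17 mice and than in CA3 in 12 of 17. Markers of astrocytes were lower in CA1 than in the DG for 5 of 10 genes and higher for 1, with summed signals of 10.13 to 11.91 in CA1, 10.33 to 11.34 in CA3 and 10.33 to 11.88 in the DG. Gfap, a defining astrocyte marker, differed by −1.98 in CA1 from the DG (adjusted p = 9.76e-06). None of 11 microglial genes was called between CA1 and the DG (summed signals of 6.68 to 9.62 in CA1 and 6.87 to 9.21 in the DG), and none of 12 oligodendrocyte genes (7.58 to 11.33 and 7.54 to 10.65). Of 10 interneuron genes 3 were higher and 3 lower in CA1. The part of RNA quality and of other cell types in the differences of the 82 genes was not tested.

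Calls in 3 neighbouring pathways went the same way against the DG. For these and the lists after them, the background is the 5.6% of all probe sets called higher in CA1 than in the DG and the 7.27% called higher in CA3, with 5.33% and 6.59% called lower and medians of 0.02 and 0.05. Of 15 genes of the citric acid cycle, 4 were higher in CA1 than in the DG and 5 in CA3, and none was lower (medians 0.30 and 0.11). Sucla2, a subunit of succinyl-CoA synthetase, was 0.53 and 0.66 higher (adjusted p = 0.00153 and 6.79e-05), Pdha1, of pyruvate dehydrogenase, 0.57 and 0.39 (adjusted p = 6.16e-05 and 0.00456) and Idh3a, of isocitrate dehydrogenase, 0.46 and 0.47 (adjusted p = 0.00222 and 0.00128). Of 15 glycolytic genes, 5 were higher in CA1 and 8 in CA3, none lower (medians 0.14 and 0.25), with Ldha, of lactate dehydrogenase, 0.72 higher in both (adjusted p = 3.51e-08 and 1.98e-08) and Pfkp, of phosphofructokinase, 0.66 and 1.06 higher (adjusted p = 0.000664 and 2.27e-07). Of 9 carriers and exchange proteins of the mitochondrial membranes, 3 were higher in CA1 and 3 in CA3 (medians 0.29 and 0.10). Ckmt1, mitochondrial creatine kinase, was 0.39 higher in CA1 than in the DG and 0.32 higher than in CA3 (adjusted p = 0.000858 and 0.0147), and Slc25a4, the adenine nucleotide translocator, was 0.29 and 0.24 higher than in the DG (adjusted p = 0.00859 and 0.0332).

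Carriers and assembly factors outside the 82 genes were mixed. Of 12 electron carrier genes, 2 were higher and 1 lower in CA1 than in the DG, and 2 were lower in CA3. Cyc1, cytochrome c1 of complex III, was 0.35 higher in CA1 than in the DG (adjusted p = 0.0293), and Coq10a, a ubiquinone-binding protein, was 0.71 higher in CA1 than in either other subfield (adjusted p = 0.001 and 0.00195). Of 24 assembly factors of complexes II to V, 2 were higher in CA1, 3 were higher in CA3 and 1 was lower in CA3. Ttc19, of complex III, was 1.03 higher in CA1 than in the DG (adjusted p = 0.00177), Coa3, of complex IV, 0.70 higher in CA3 (adjusted p = 0.00665), and Sdhaf1, of complex II, 0.88 below the DG in CA3 (−0.88, adjusted p = 0.00279).

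Of 14 regulators of mitochondrial genes, none was higher than in the DG, 2 were lower in CA1 and 3 in CA3 (medians −0.10 and −0.32). Sp1 differed from the DG by −0.56 in CA1 and −0.90 in CA3 (adjusted p = 0.0357 and 0.000309), Gabpa by −0.73 and −0.87 (adjusted p = 0.0205 and 0.00412) and Yy1 by −0.36 and −0.50 (adjusted p = 0.207 and 0.0422). These factors recognise motifs searched in the promoter windows above. Nrf1 differed from the DG by −0.67 in CA3 (adjusted p = 0.081). Esrrg, an estrogen-related receptor, was 1.39 higher in CA1 than in CA3 (adjusted p = 0.0135).

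Genotypes were then compared within each subfield, to ask whether mutant tau goes with a change in the same genes. No gene of the 82 was called in any of the 9 contrasts by limma or by the methods' Fisher's LSD. Of all probe sets, 0% were called between rTg4510 and tTA mice in CA1 and in the DG, 0.00442% (1 probe set) in CA3, and 0.00442% (1 probe set) between rTg4510 and DN mice in CA1, with 0% in the other contrasts. At an unadjusted p under 0.05, 6 of the 82 genes passed between rTg4510 and tTA mice in the DG, 2 in CA3 and 0 in CA1 (7.32%, 2.44% and 0%, against 5.71%, 5.91% and 3.97% of all probe sets). The typical standard error of a difference between rTg4510 and tTA mice was 0.21 (CA1), 0.26 (CA3) and 0.23 (DG).

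The medians of the 82 genes had different signs by subfield. The difference of rTg4510 from tTA mice was above 0 in 40 of 82 genes in CA1 (median −0.01), in 62 in CA3 (median 0.13) and in 17 in the DG (median −0.17), where the medians of all probe sets were −0.02, −0.03 and −0.01. The median in CA1 changed sign without single mice, between −0.03 and 0.02, while that in CA3 stayed between 0.04 and 0.18 and that in the DG between −0.24 and −0.11. The difference of differences was tested per mouse. For CA3 minus DG it was above 0 in 71 of 82 genes with a median of 0.29, for CA1 minus DG in 66 with a median of 0.20 and for CA1 minus CA3 in 23 with a median of −0.13. Of all probe sets 46.4%, 48.5% and 52.1% were above 0, with medians of −0.03, −0.01 and 0.02. None of the 82 genes was called by limma or Fisher's LSD in these 3 tests (0% of all probe sets each), and 6, 3 and 0 passed an unadjusted p of 0.05 (7.32%, 3.66% and 0%, against 6.42%, 4.82% and 4.15% of all probe sets). These 3 tests share their arrays.

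**Figure D3:**
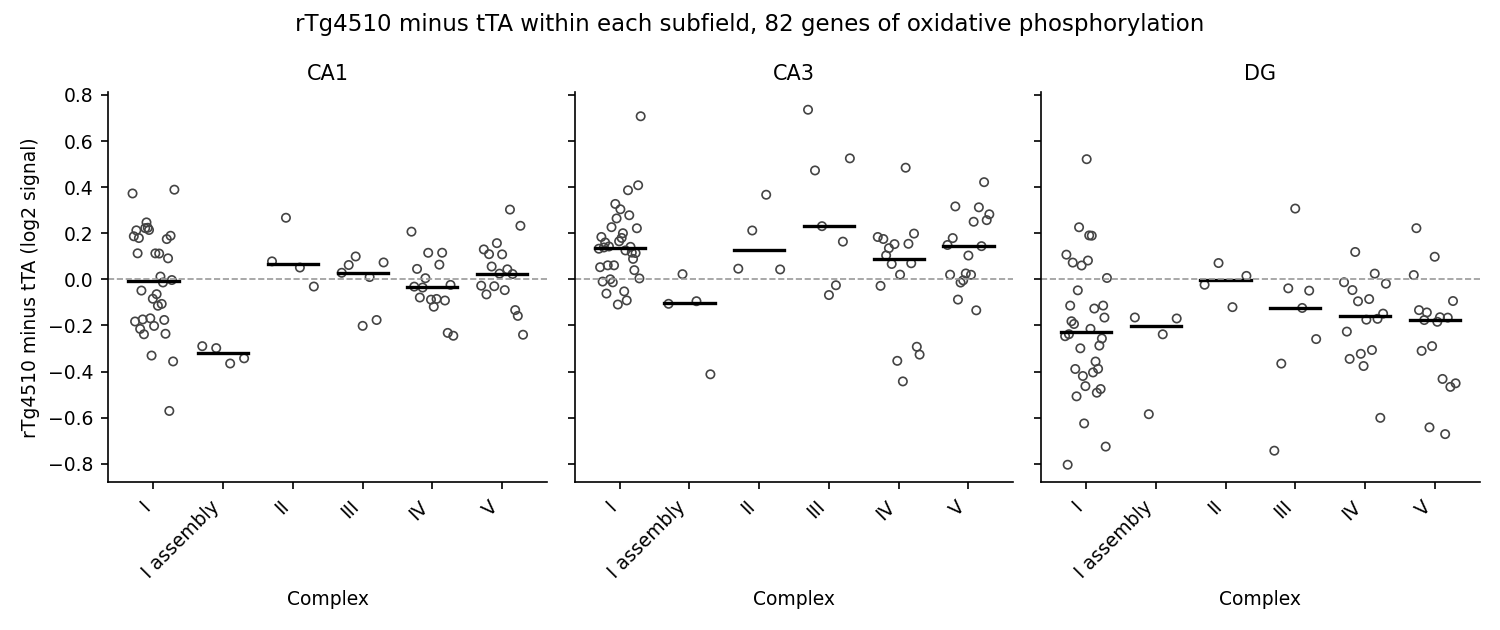
Difference in log2 signal of rTg4510 from tTA mice for each of the 82 genes (points) within CA1, CA3 and the DG, by complex, with the median of each complex as a bar. No gene was called, and the points lie around 0 in CA1, mostly above it in CA3 and mostly below it in the DG.

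By complex, the medians of rTg4510 minus tTA in the DG were −0.23 for complex I, −0.20 for its assembly factors, −0.00 for complex II, −0.12 for III, −0.16 for IV and −0.18 for V. In CA3 they were 0.14, −0.10, 0.13, 0.23, 0.09 and 0.14, and in CA1 −0.01, −0.32, 0.06, 0.03, −0.03 and 0.02. On the probe sets used, the medians of the complex I assembly factors were thus below 0 in all 3 subfields. Below 0 were 4 of 4 genes in CA1, 3 of 4 in CA3 and 4 of 4 in the DG, but none was called. Ndufaf4 changed sign in the DG with its other probe set (0.31, against −0.24). Its differences by that probe set stayed below 0 in CA1 (−0.23) and CA3 (−0.08). The DG count therefore depended on the choice of probe set.

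In the DG the lowest difference was that of Ndufa11. The signals of the 5 tTA mice were 7.92, 8.50, 8.13, 8.39 and 8.79, those of the rTg4510 mice ran from 6.92 over 7.53 to 8.14 and those of the DN mice from 7.27 over 7.44 to 7.85. Every tTA array lay above every DN array by a small gap (7.92 against 7.85), and rTg4510 and tTA arrays overlapped. The gene was picked as an extreme, and the share of all probe sets without overlap was not taken. Nothing is therefore read from this gap. The difference of rTg4510 from tTA was −0.80 (standard error 0.20, adjusted p = 0.576 from limma), and that of tTA from DN 0.87 (standard error 0.20, adjusted p = 0.792), comparisons that share the tTA arrays. Taken per mouse, the rTg4510 minus tTA difference of Ndufa11 differed between subfields by 0.62 (CA1 minus DG, adjusted p = 0.99) and 0.99 (CA3 minus DG, adjusted p = 0.713). Ndufb2, another complex I subunit, also had tTA arrays above DN arrays on average, by 0.83 in the DG (adjusted p = 0.908) and 0.84 in CA1 (adjusted p = 0.998).

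Uqcr10, a small subunit of complex III, had differences of opposite sign in CA3 and the DG. In CA3 the tTA mice were at 5.81, 7.21, 7.73, 8.03 and 7.22 and the rTg4510 mice ran from 7.70 over 7.95 to 8.18, with a difference of 0.74 (standard error 0.48, adjusted p = 0.858). The tTA mice were at 6.95, 7.99, 6.69, 8.24 and 7.72 in the DG and the rTg4510 mice ran from 6.35 over 6.60 to 7.44, with a difference of −0.74 (standard error 0.29, adjusted p = 0.804). The groups overlapped in both. Without tTA mouse 1 the CA3 difference was 0.39. The difference between these differences was 1.48 (standard error 0.52), which did not pass the threshold (adjusted p = 0.713). In CA3 the DN mice spread from 5.66 to 8.78, more widely than either other group.

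The other genes at the ends of the differences were also not called. In CA1, Ndufs7, Ndufaf4 and Ndufv2 had the lowest differences (−0.57, −0.36 and −0.36) and Ndufv3, Ndufa1 and Atp5k the highest (0.39, 0.37 and 0.30), each with an adjusted p of 0.999. The value of Ndufa1 rests on tTA mouse 4, whose signal was 7.86 against 9.14 to 9.27 in the other tTA mice, and without that mouse the difference was 0.10. In CA3, Ndufv3 differed by 0.71 (standard error 0.34, adjusted p = 0.841) and Uqcrq by 0.53 (standard error 0.34, adjusted p = 0.856), while Cox7a1, Ndufaf5 and Cox6b2 were lowest (−0.44, −0.41 and −0.35). Cox7a1 and Cox6b2 have signals at or below the typical probe set. In the DG, Ndufv2 differed by −0.73 (standard error 0.38, adjusted p = 0.879), and Ndufb4, Uqcrc1 and Ndufa9 were highest (0.52, 0.31 and 0.23, adjusted p = 0.873, 0.915 and 0.964). With their other probe sets, Ndufv2 and Ndufb4 differed in the DG by 0.20 and 0.01. In CA1 the other probe sets gave −0.19 for Ndufs7, −0.06 for Ndufv2, −0.23 for Ndufaf4 and 0.24 for Atp5k. Several of the differences at the ends rested on 1 mouse. Without tTA mouse 1, Ndufv3 in CA1 was at 0.12 and Atp5k at 0.17, and without rTg4510 mouse 1 Atp5k was at 0.19. Without tTA mouse 2, Ndufs7 in CA1 was at −0.26, and without tTA mouse 4, Cox7a1 in CA3 was at −0.18. Without rTg4510 mouse 4, Ndufaf5 in CA3 was at −0.23, and without rTg4510 mouse 5, Ndufv2 in the DG was at −0.38. Uqcrc1 in the DG was at 0.05 without tTA mouse 5 and 0.19 without tTA mouse 1. Ndufa9 moved by over 1.5 times without any of 8 mice (rTg4510 mice 1, 2, 3 and 5 and tTA mice 1, 3, 4 and 5), between 0.03 without tTA mouse 4 and 0.48 without rTg4510 mouse 5.

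**Figure D4:**
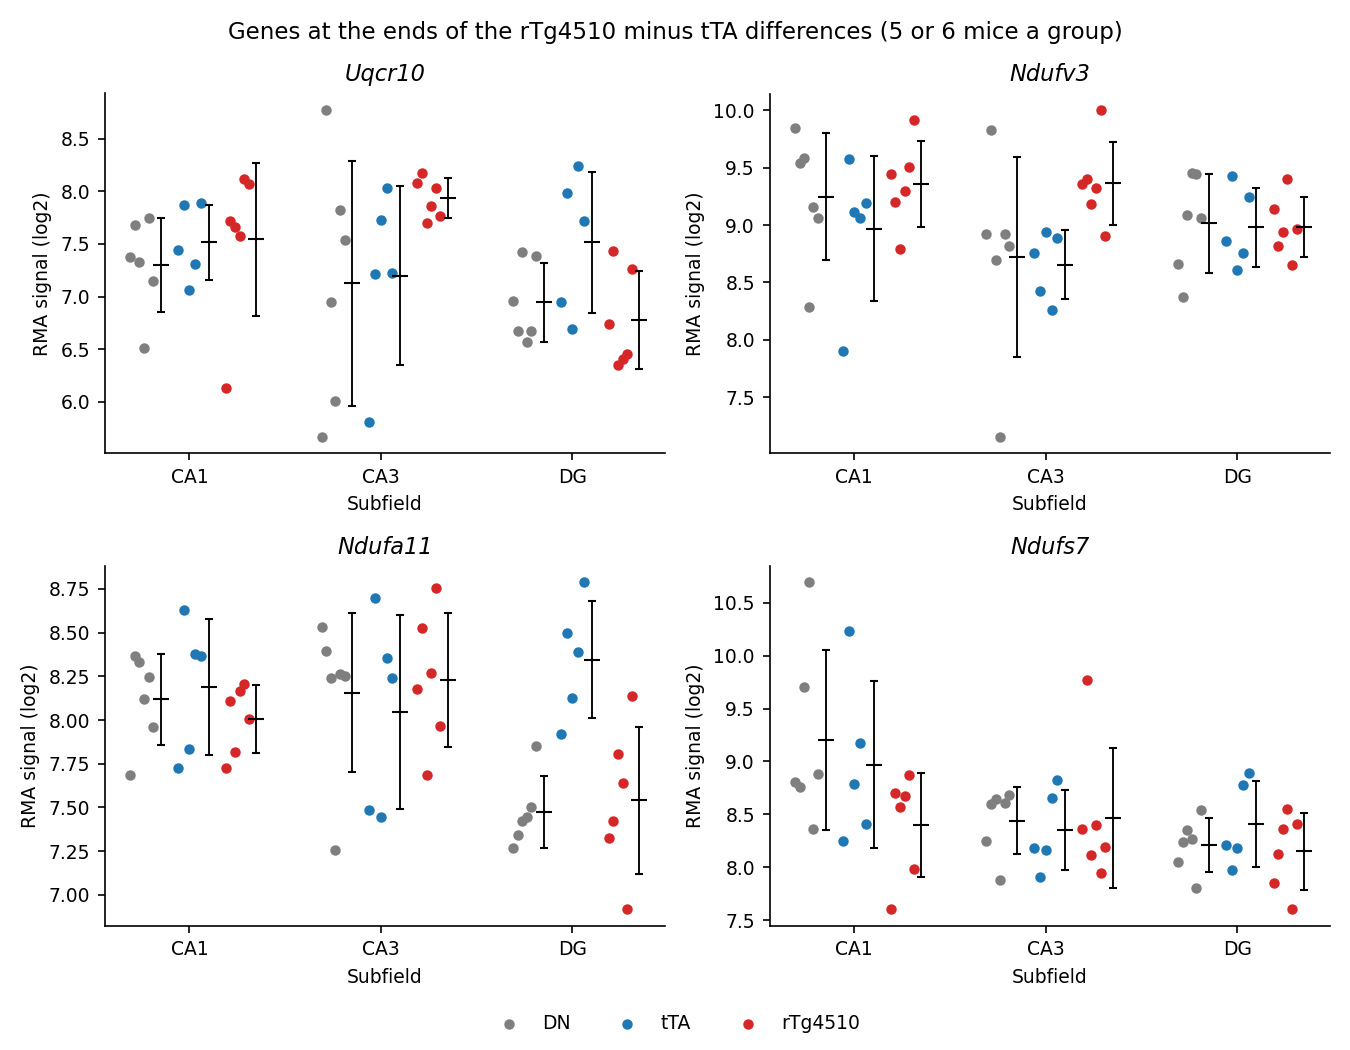
Log2 RMA signal of 4 genes at the ends of the rTg4510 minus tTA differences, by subfield and genotype, with a point for each mouse and the mean ± SD of 5 or 6 mice in black. Groups overlap except for the DN and tTA arrays of Ndufa11 in the DG. The genes were picked as extremes, so that nothing is read from this gap.

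For the comparisons with DN mice, which share arrays with those above, the difference of tTA from DN mice was above 0 in 64 of 82 genes in CA1 (median 0.14), 55 in CA3 (0.08) and 47 in the DG (0.07), and that of rTg4510 from DN mice in 67 (median 0.17), 68 (0.19) and 24 (−0.08). These medians depend on the arrays in doubt. Without the 5 arrays those of tTA minus DN were 0.07, 0.00 and 0.04, and those of rTg4510 minus DN 0.08, 0.12 and −0.18. With the 3 arrays of a mouse averaged, the medians were −0.02 for rTg4510 minus tTA, 0.12 for tTA minus DN and 0.09 for rTg4510 minus DN, again with no gene called (0% of all probe sets in each) and with 1, 3 and 0 genes at an unadjusted p under 0.05 (1.22%, 3.66% and 0%, against 5.35%, 6.17% and 5.41% of all probe sets). The highest difference of rTg4510 from tTA on this scale was that of Ndufv3 (0.37, standard error 0.16, adjusted p = 0.911).

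Single arrays weighed on these medians. The mean over the 82 genes, each relative to its own mean over all arrays, was lowest in the CA3 and CA1 arrays of DN mouse 4 (−0.66 and −0.44) and in the DG arrays of rTg4510 mice 6 and 5 (−0.54 and −0.51). In tTA mice the DG arrays were at −0.25, 0.22, −0.10, −0.11 and 0.11, the CA3 arrays at −0.27, 0.12, −0.24, 0.40 and 0.24 and the CA1 arrays at 0.03, 0.32, 0.12, 0.08 and 0.18. In rTg4510 mice it ran from 0.07 over 0.12 to 0.26 in CA1, from −0.00 over 0.17 to 0.33 in CA3 and from −0.54 over −0.13 to −0.00 in the DG. The Gapdh 3′ minus 5′ difference was 3.17 and 3.20 in the CA3 and CA1 arrays of DN mouse 4 and 2.87 and 3.62 in the DG arrays of rTg4510 mice 6 and 5, against a median of 2.67 in the DG and 2.44 in the DG of tTA mice.

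**Figure D5:**
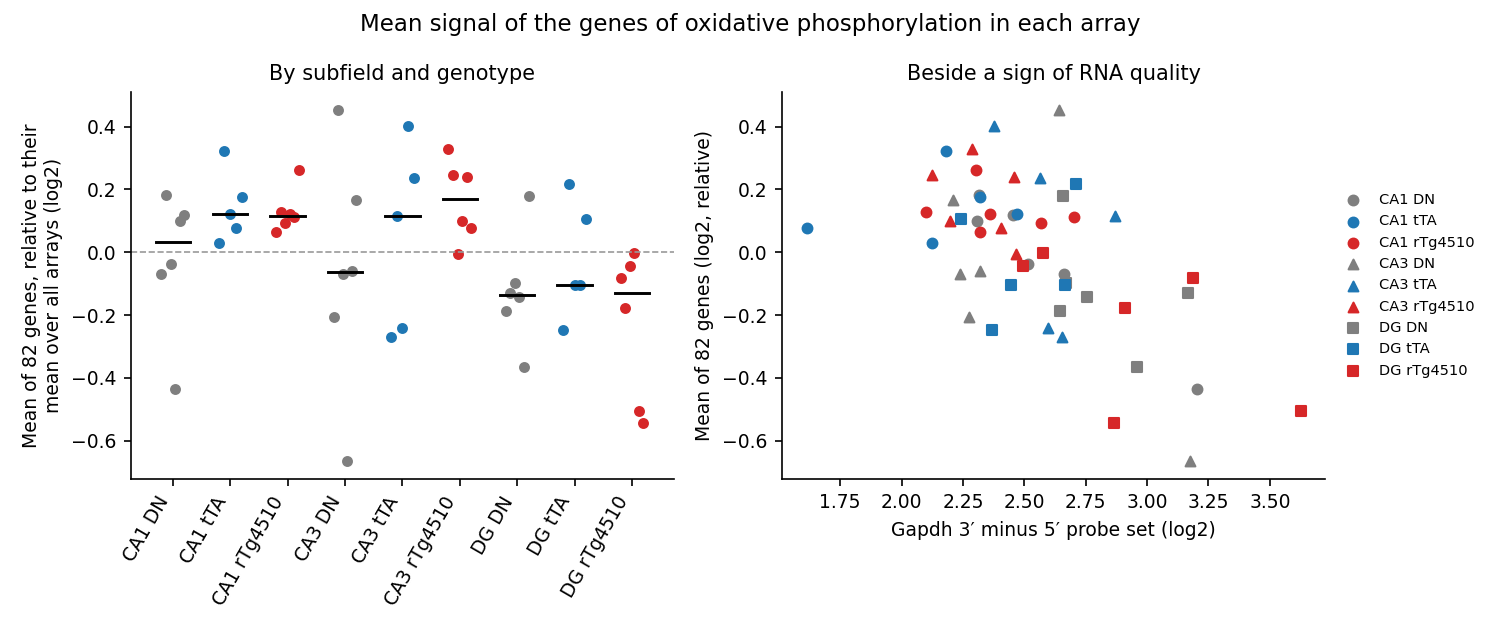
Left, mean log2 signal of the 82 genes in each array relative to their means over all arrays, by subfield and genotype, with group medians as bars. Right, the same values against the Gapdh 3′ minus 5′ difference in log2 signal, where the 4 arrays with the lowest means, between −0.66 and −0.44, have Gapdh differences of 2.87 to 3.62.

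Markers of other cells were as follows in the DG and, without those of astrocytes, in CA1. Those of CA3 are not given here. In the DG, summed astrocyte signals were 10.88 to 11.34 in tTA and 10.57 to 11.88 in rTg4510 mice, microglial signals 7.86 to 9.21 and 6.92 to 8.25, and oligodendrocyte signals 7.54 to 8.75 and 8.09 to 10.65. In CA1 the oligodendrocyte signals were 8.28 to 9.74 in tTA and 9.58 to 11.33 in rTg4510 mice and the microglial signals 6.68 to 7.40 and 7.62 to 9.62. Differences of rTg4510 from tTA were above 0 in 12 of 12 oligodendrocyte genes in the DG and 11 of 12 in CA1, with none called. The share of all probe sets above 0 is not given beside these counts. The part of other cells in the values of the respiratory genes, and that of RNA quality, was not tested.

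No neighbouring pathway was called between rTg4510 and tTA mice either. For the citric acid cycle the medians were −0.00 (CA1), 0.04 (CA3) and −0.03 (DG), and Pdha1 had the smallest p in the DG (−0.45, standard error 0.15, adjusted p = 0.764). For glycolysis they were 0.07, 0.04 and 0.05. Of the carriers, Mpc1, a subunit of the mitochondrial pyruvate carrier, differed by 1.04 in CA3 (standard error 0.47) and differed by −0.55 in the DG (standard error 0.25, adjusted p = 0.855). For assembly factors of complexes II to V the medians were 0.09, −0.01 and −0.13, and for the regulators 0.01, −0.01 and −0.21, where Nrf1 differed by 1.17 in the DG (standard error 0.45, adjusted p = 0.804).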

How the data were processed

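RNA of laser-captured CA1, CA3 and DG layers was amplified (Ovation Pico WTA kit) before hybridisation to Affymetrix HT-MG-430A arrays. The authors deposited RMA signals on the log2 scale (background-corrected, normalized between arrays and summarised per probe set), although the methods call them anti-log values. The RMA version is not given in the sources used here. Of 22716 probe sets, 90 controls were left out and 22626 were tested without a filter. The platform's table names 1 gene for 18003 of these, more than 1 for 287 and no gene for 4336. Array medians lay between 2.91 and 3.12, and the number of arrays limits the precision.

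Limma 3.58.1 in R 4.3.3 compared subfields over 51 arrays with the mouse as a block, the 3 genotypes within each subfield, each mouse's mean and each mouse's differences between subfields. P values were adjusted by Benjamini-Hochberg. Labels give 3 arrays to each mouse. Replicate numbers follow accession order. No pair of arrays was identical (highest r 0.979). The fits were tested on simulated data. Summed marker signals are log2 of summed linear signals. Alternatives were array weights, median centring, an intensity trend, dropping probe sets under the 40th percentile of signal, quantile normalization, a random block, Fisher's LSD, other choices of probe set, and leaving out each mouse. Leaving out the 5 or 7 arrays was added after seeing the data. Genes named are those called in a subfield contrast, the 3 highest and 3 lowest differences of rTg4510 from tTA mice, the 2 with the highest signal in each complex, complex II, and tissue isoforms. Ndufb2, Uqcr11, Cox5a and others were chosen after their values were seen. The genes and the other lists were chosen with earlier results of these data known. Promoter windows are from RefSeq (GRCm38.p6), the first listed per gene. Figures used matplotlib 3.10.9 in Python 3.11.15.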

Additional observations from a re-analysis of the deposited data

Results flagged for a closer look

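Of 279 checks of described values, each in a group of 5 or 6 arrays of 1 subfield and genotype, 20 (7.17%) found an array whose gap to its neighbour took most of the range of the group. Chance alone gives about 1 in 20. Over all 82 genes, 68 of 738 checks (9.21%) found one, of which the CA3 and CA1 arrays of DN mouse 4 held 9 and 7 and no other array more than 4.

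The mean of the 82 genes in the CA1 array of rTg4510 mouse 6 (0.26) and the mean of the complex V genes in it (0.43) stood above their group. In the CA1 array of DN mouse 4 the means of the complex V genes (−0.52) and complex II genes (−0.55) and the signal of Atp5pb (6.22) stood below theirs, and in its CA3 array Ndufa11 did (7.26).

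Among other DN arrays, Ndufb4 was set apart in CA1 of mouse 1 (6.84) and the DG of mouse 5 (6.80), Cox7a1 in the DG of mouse 3 (2.57) and Uqcrc1 in CA3 of mouse 1 (6.52). Among tTA arrays it was Atp5d in CA3 of mouse 3 (7.875) and the DG of mouse 2 (9.49), Atp5g1 in CA1 of mouse 3 (6.40), Ndufa1 in CA1 of mouse 4 (7.855) and Ndufaf1 in the DG of mouse 2 (4.45). Among rTg4510 arrays it was Cox7a1 in CA1 of mouse 3 (3.005), Ndufaf4 in CA3 of mouse 4 (8.10), Ndufs7 in CA3 of mouse 2 (9.77), Uqcr10 in CA1 of mouse 1 (6.13) and Uqcrc1 in CA3 of mouse 3 (4.88).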

How the results depend on the processing

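Against the DG, alternatives moved the number of genes called more than their direction. The counts given for all probe sets are of the 134 probe sets and not of the 82 genes. The share of all probe sets called under each alternative was not taken beside these counts. Between CA1 and CA3, where 1 gene was called, array weights gave 2, the probe set of highest SD 0, all probe sets 2, and leaving out single mice 0 to 1. With all probe sets, a probe set of Ndufs8 with a low mean signal of 3.35 was called lower in CA1 (−0.30, adjusted p = 0.039). Between CA1 and the DG, where 8 were called, array weights gave 13, all probe sets 20, and leaving out single mice 6 to 13. Between CA3 and the DG, where 9 were called, centring each array on its median gave 16, all probe sets 15, the fit without a replicate block for the mouse 5, and leaving out single mice 5 to 14. Against the DG, the median difference of the 82 genes stayed above 0 in each alternative run, from 0.14 to 0.25 for CA1 and from 0.11 to 0.23 for CA3. The median difference between CA1 and CA3 changed sign in 3 settings. The difference of Atp5d between CA1 and CA3 reversed with the probe set of highest SD (−0.0035, adjusted p = 0.994). Ndufa12 was not called with that choice, which takes a probe set of low signal (adjusted p = 0.726 in CA1 and 0.196 in CA3). The cause was not tested in the other cases. No gene was called between genotypes under any of the alternatives run, and the 5 or 6 arrays a group and the standard errors of the differences limit what could be called there. The median of rTg4510 minus tTA in CA1 changed sign in 4 settings, that of tTA minus DN in CA3 in 2 and in the DG in 1, and that of rTg4510 minus tTA on the mouse mean in 1.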
